A study of Homo sapiens with 2 samples.

Results

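The genes described are core subunits of condensin and cohesin, the ring-shaped complexes that shape chromosomes. They are SMC2, SMC4, NCAPD2, NCAPG, NCAPH, NCAPD3 and NCAPG2 of condensin and SMC1A, SMC3 and RAD21 of cohesin. A probe was taken as a member when the gene name given for it in the array files was one of these symbols and it was not a control probe. This gave 10 gene names of 43317 on the array, 7 of condensin and 3 of cohesin, and 15 probes of 58201. All 10 symbols are current in RefSeq, and for 15 of 15 probes the transcript accession belongs to the same gene.

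RNA came from Ca9-22, a human oral squamous cell carcinoma (OSCC) line, infected with lentivirus that carried either DLEU1, a long noncoding RNA, or a control vector. Both cultures went through infection and then blasticidin selection, which the labels give as 6 mg/ml for 2 weeks. Per the methods, the insert was a full-length DLEU1 cDNA amplified from KON cells in pLenti6/V5-DEST, and the control was the empty vector. Each group was 1 array, hybridised with Cy3-labelled cRNA from 100 ng of total RNA, so there is no replicate of either culture.

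Condensin and cohesin share a design. A pair of SMC ATPases forms a V-shaped arm, a kleisin closes the ring, and HEAT-repeat subunits bind the kleisin and DNA. Cohesin holds sister chromatids together from S phase to anaphase and extrudes chromatin loops in interphase. Condensin compacts chromosomes for mitosis: condensin II is nuclear throughout the cell cycle, and condensin I reaches the chromosomes after the nuclear envelope breaks down.

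Every level below is the log2 processed signal of a probe minus the 75th percentile of its array, and every difference is DLEU1 vector minus control vector on that scale. With 1 array per group no test was possible, precision is limited by how few arrays there are, and a gene is called lower or higher at 2-fold or more. The only error at hand is technical. Among 282 probes printed at several spots, the difference of a single spot had an SD of 0.0797, which means an SD of 0.113 for the gap between differences of 2 single-spot probes. Different probes of the same gene spread more, with an SD of 0.47 pooled over 4674 genes and a median of 0.23. Variation from culture to culture is in neither of them. Each member probe had 1 spot, and none of these spots was saturated (0) or marked as an outlier (0).

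DLEU1 itself had a level of 3.17 in control vector cells and of 5.91 in DLEU1 vector cells, 6.67-fold higher on its brightest probe, which is the direction the labels call for. The differences of its 3 probes ran from 0.54 to 2.74. All 8 squamous epithelial markers were detected on both arrays, with a summed signal of 79300 and 338000. With the DLEU1 vector 6 of them were at least 2-fold higher, beside 9.18% of all genes detected on both arrays. TP63 (0.96) was under 2-fold, and EPCAM (-0.78) went the other way. Of the fibroblast markers 2 and 3 of 6 were detected (summed signal 375 and 5290), with COL1A2, COL3A1 and DCN not well above background on either array. COL1A1 differed by 3.99 and PDGFRB by -0.33. Of the 4 leukocyte markers with a probe, 3 were detected on each array (302 and 247), with CD3E not detected, and of 3 endothelial markers 2 (108 and 648), with PECAM1 not detected. VWF differed by 3.7 on its brightest probe and by -0.07 on the other detected probe, and CDH5 by -0.59. The part of these shifts in the member values was not tested. In RNA from a whole culture, fewer cells in a given state and less RNA per cell cannot be told apart.

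A strip of the DLEU1 vector array, rows 65 to 104 and columns 36 to 40, stood apart from the rest. Of its 63 single-spot probes with a control signal of at least 100, 27 (42.9%) were at least 8-fold lower on the DLEU1 vector array, against 114 of 18233 (0.625%) elsewhere. The strip was picked by this same measure, so the contrast follows in part from the choice. It holds 1 member probe, of NCAPD2, and values that touch it are given with and without it.

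Of the 10 members, 9 were detected on both arrays, and 8 of these 9 were at least 2-fold lower with the DLEU1 vector. None was higher (0 of 9). Among all 20246 genes detected on both arrays, 9.78% were at least 2-fold lower and 9.18% at least 2-fold higher. The median difference of the 9 members was -1.35, against -0.07 over all genes. At a threshold of 3-fold, 3 of 9 members were lower, beside 3.31% of all genes, and at 1.5-fold 8 of 9, beside 22.0%. The remaining member, RAD21, lay just under the 1.5-fold threshold. By probe, 14 of 15 were detected on both arrays, and 12 of the 14 were at least 2-fold lower, beside 9.78% of all probes. The median over the 14 probes was -1.52. Without the NCAPD2 probe in the strip, 11 of 13 probes were lower and the median was -1.47.

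**Figure D1:**
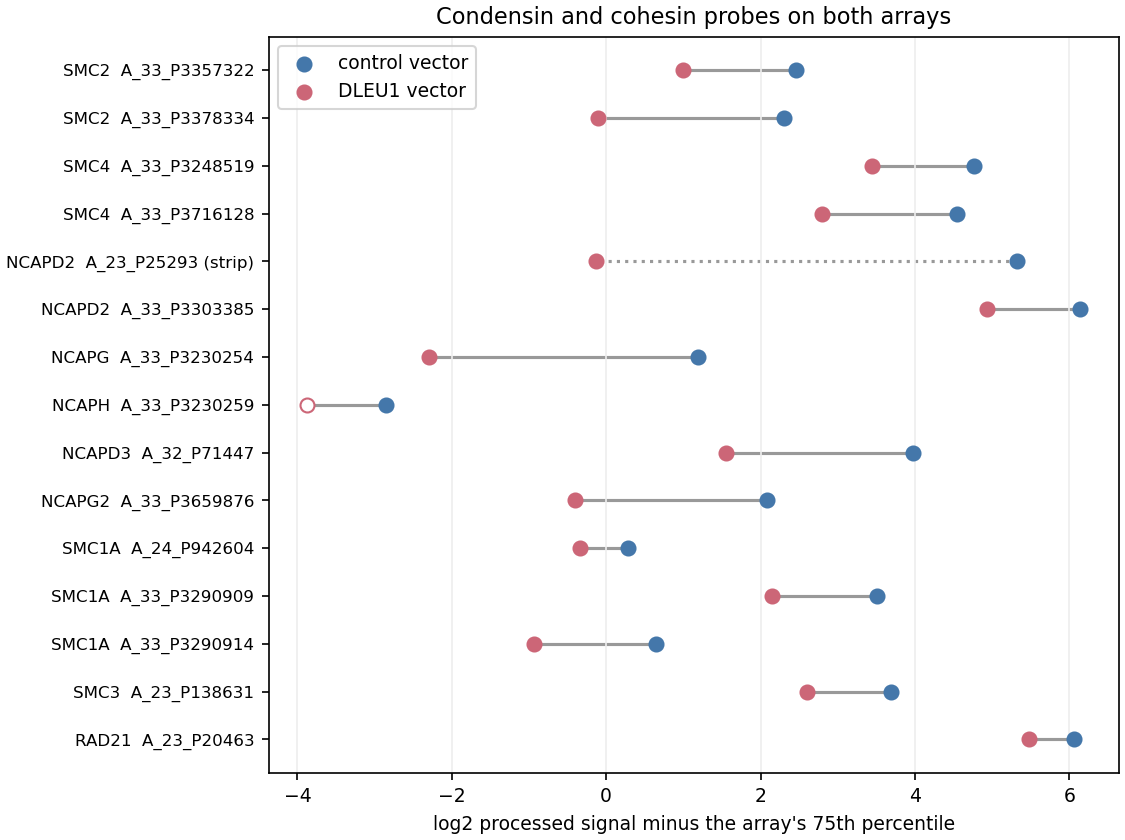
Levels of the 15 member probes, as log2 processed signal minus the 75th percentile of the array, for the control vector (blue) and the DLEU1 vector (red). Each point is a single spot, the open point was not well above background, and the dotted line marks the NCAPD2 probe in the strip. The DLEU1 vector point lies to the left of the control vector point for every probe, with the shortest lines for RAD21 (-0.58) and SMC1A A_24_P942604 (-0.62).

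On the brightest probe of each gene, the SMC ATPases, the arms of each ring, were lower by similar amounts. Their single probes ran more widely, from -2.40 (SMC2) to -0.62 (SMC1A). SMC2, which pairs with SMC4 in both condensins, had 2 probes that differed in size of change, so their sequences are shown, 5′ to 3′ and on hg19. The first is the whole probe and the second the first 30 of its 60 bases.
SMC2 A_33_P3378334, chr9:106896796-106896855, plus strand: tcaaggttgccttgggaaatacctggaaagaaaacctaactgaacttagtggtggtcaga
SMC2 A_33_P3357322, chr9:106903624-106903683, plus strand: ccagaacctaagatatactacgtcactgac

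The brighter SMC2 probe, A_33_P3357322, gave levels of 2.46 (control vector) and 0.99 (DLEU1 vector). Its difference of -1.47 is 2.77-fold lower. A_33_P3378334 gave 2.30 and -0.10, a difference of -2.40 or 5.28-fold lower. Both probes were lower on the DLEU1 vector array, and the gap of 0.93 between their differences is wider than spot error alone gives.

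SMC4, the partner of SMC2, was measured by A_33_P3248519 at 4.77 and 3.45, a difference of -1.32 (2.49-fold lower). Its other probe, A_33_P3716128, read 4.55 and 2.80, a difference of -1.75 (3.36-fold lower). SMC2 and SMC4 are present as a dimer in condensin. The differences of their brightest probes were -0.15 apart, close to the SD of 0.113 for a pair of probes. With the mean of the detected probes of a gene, SMC2 read -1.94 and SMC4 -1.53. Against all genes, 3.98% were as low as SMC2 and 5.18% as low as SMC4.

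SMC1A and SMC3 form the arms of cohesin. SMC1A had 3 probes. Its brightest, A_33_P3290909 (chrX:53426547-53426606, hg19, minus strand), gave 3.51 and 2.15, a difference of -1.35 or 2.55-fold lower. A_33_P3290914 (chrX:53440185-53440244) gave 0.64 and -0.93, a difference of -1.58. A_24_P942604, assigned to transcript NM_006306 and not NM_001281463 as the other two, gave 0.28 and -0.34, a difference of -0.62 that is under 2-fold. All of them had negative differences, over a span of 0.95. The sequences of the probes that passed 2-fold are shown. The call for this gene rests on the brightest, A_33_P3290909, alone.
SMC1A A_33_P3290909: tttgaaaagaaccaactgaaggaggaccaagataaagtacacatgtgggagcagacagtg
SMC1A A_33_P3290914: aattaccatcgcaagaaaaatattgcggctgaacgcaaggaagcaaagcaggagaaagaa

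SMC3 had 1 probe, A_23_P138631, at 3.69 and 2.6, a difference of -1.09 (2.13-fold lower). It was the called member nearest to the 2-fold threshold. SMC1A and SMC3 differed by -0.26 in their change, a 1.2-fold shift of their ratio. The median over the 4 ATPases was -1.34, with a range from -1.47 to -1.09.

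The HEAT-repeat subunits, which set the identity of condensin I and condensin II, had a wider range. NCAPG of condensin I had the lowest difference of the members. Its probe A_33_P3230254 (chr4:17846426-17846485, hg19, plus strand) gave a signal of 553.0 in control vector cells, against 48.22 in DLEU1 vector cells. On the log2 scale these are 1.19 and -2.29, a difference of -3.48 or 11.2-fold lower. Only 27 of the 20246 genes (0.133%) were as low, NCAPG included. The signal on the DLEU1 vector array was dim, and the size of the difference depends on the background correction: with normexp it was -2.45.

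NCAPG2, the counterpart of NCAPG in condensin II, gave 2.08 and -0.41 on A_33_P3659876, a difference of -2.49 (5.6-fold lower). NCAPD3, the other HEAT-repeat subunit of condensin II, gave 3.97 and 1.55 on A_32_P71447, a difference of -2.42 (5.34-fold lower). These subunits of condensin II were lower by nearly the same amount, with a gap of -0.07 that is smaller than the SD of 0.113 for a pair of probes. About 1% of genes were as low as either of them (1.01% and 1.12%).

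NCAPD2, the HEAT-repeat partner of NCAPG in condensin I, was measured by 2 probes within the same stretch of chromosome 12. Their first 30 bases are shown because the probes gave unlike differences and only the first lies in the strip.
NCAPD2 A_23_P25293, chr12:6640598-6640657, plus strand: cctgtgcagggtatcctgtagggtgacctg
NCAPD2 A_33_P3303385, chr12:6641042-6641101, plus strand: cgttgagctgcttcaactttggaatatatg

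The probe outside the strip, A_33_P3303385, gave 6.14 and 4.93, a difference of -1.22 or 2.33-fold lower. This is the value used for NCAPD2. The probe in the strip, A_23_P25293, gave 5.32 and -0.13, a difference of -5.45 or 43.7-fold. The differences of the 2 probes are 4.23 apart, the widest span among the members with several probes. The spot of A_23_P25293 sits at row 91 and column 38. Its variation over pixels was 10.6% of the mean signal in the control and 35.7% with DLEU1, against 18.4% and 16.9% for the other probe. In the same column, 6 spots within 3 rows had a median difference of -5.0, from -9.85 to -3.17. In the same rows but 3 and 4 columns away, 11 spots had a median of 0.06, from -1.21 to 0.85. The low value of A_23_P25293 was thus shared by its neighbours in the column and not by those a few columns away. With the mean of both probes NCAPD2 would read -3.33, and with the strip left out -1.22.

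**Figure D2:**
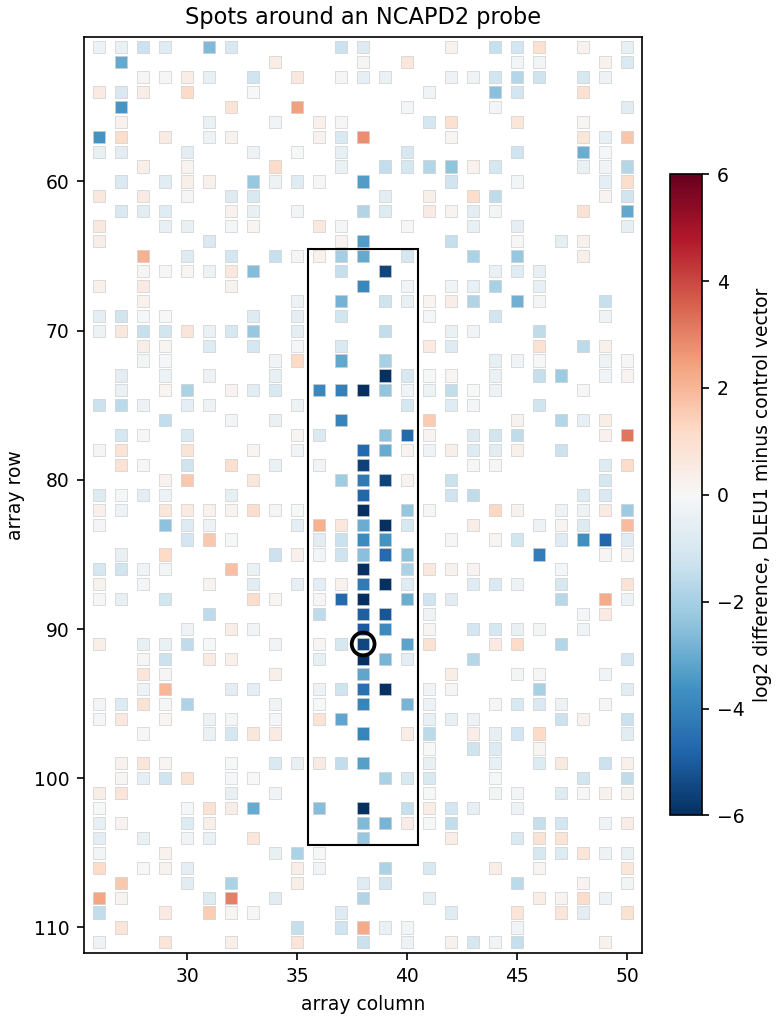
Spots of the array around the NCAPD2 probe A_23_P25293 (circle), by array column and row, coloured by the log2 difference, DLEU1 vector minus control vector. Spots shown had a control signal of at least 100, and the frame marks the strip, rows 65 to 104 and columns 36 to 40. Low values run down column 38 and the columns next to it inside the frame, while the spots 3 and 4 columns from the circle in the rows around it had a median of 0.06.

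The change of NCAPG exceeded that of NCAPD2 by -2.26, a 4.8-fold shift between 2 subunits of condensin I, and with normexp by -1.18 or 2.26-fold. In condensin II the matching shift, NCAPG2 against NCAPD3, was 1.05-fold, and its direction turned with normexp (0.17, or 1.12-fold). Between the paralogs NCAPG and NCAPG2 the gap was -1.0 or 2.0-fold, and with normexp 1.23-fold.

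The kleisins close the rings. NCAPH, the kleisin of condensin I, was dim on both arrays. Its only probe, A_33_P3230259 (chr2:97041160-97041219, hg19, plus strand), had a signal of 33.64 in control vector cells and 16.17 in DLEU1 vector cells, where it was not well above background. The levels were -2.85 and -3.87. Taken as they stand, these levels are 2.03-fold apart. The lowest detected level on the DLEU1 vector array was -4.04, below this undetected signal, so 2.03-fold is no firm minimum. NCAPH enters no median or count of members detected on both arrays. RAD21, the kleisin of cohesin that separase cuts at anaphase, was measured by A_23_P20463 at 6.06 in control vector cells and 5.48 in DLEU1 vector cells. Its difference of -0.58 did not reach 2-fold, and 22.2% of all genes were as low.

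Ordered by difference, the members were NCAPG, NCAPG2, NCAPD3, SMC2, SMC1A, SMC4, NCAPD2, SMC3 and RAD21. The gap between NCAPG and NCAPG2 was 1.0 as processed, wider than the SD of 0.113 for a pair of probes. With normexp it came to 0.3 (NCAPG -2.45, NCAPG2 -2.15), and NCAPD3 (-2.32) then lay between them. The gap between NCAPD3 and SMC2 (0.95) was also wider than that SD, though the other SMC2 probe read -2.40. So was that between SMC3 and RAD21 (0.51). The neighbours from SMC2 to SMC3 were 0.04 to 0.13 apart, close to that SD or below it, and their order carries no weight. Against the SD of 0.47 between probes of a gene, the gaps of 1.0 and 0.95 were wider, that of 0.51 was about as wide, and the rest were narrower, with values as processed.

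The 6 condensin members detected on both arrays had a median of -1.94, from -3.48 (NCAPG) to -1.22 (NCAPD2), and 6 of 6 were at least 2-fold lower. The 3 cohesin members had a median of -1.09, from -1.35 (SMC1A) to -0.58 (RAD21), and 2 of 3 were at least 2-fold lower. Beside these counts, 9.78% of all genes were at least 2-fold lower. SMC3 fell under 2-fold with the 75th percentile over detected probes (-0.98), quantile normalization (-0.95) and loess (-0.93). NCAPD2 did so with quantile normalization (-0.99) and loess (-0.96), and RAD21 passed 2-fold with spike-in scaling (-1.04). The gap of -0.85 between the medians does not depend on any scaling constant, but the ranges overlap, and it came to -0.38 without the filter on dim probes and -1.36 with the mean of all probes of a gene. Whether the complexes differ was not tested.

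**Figure D3:**
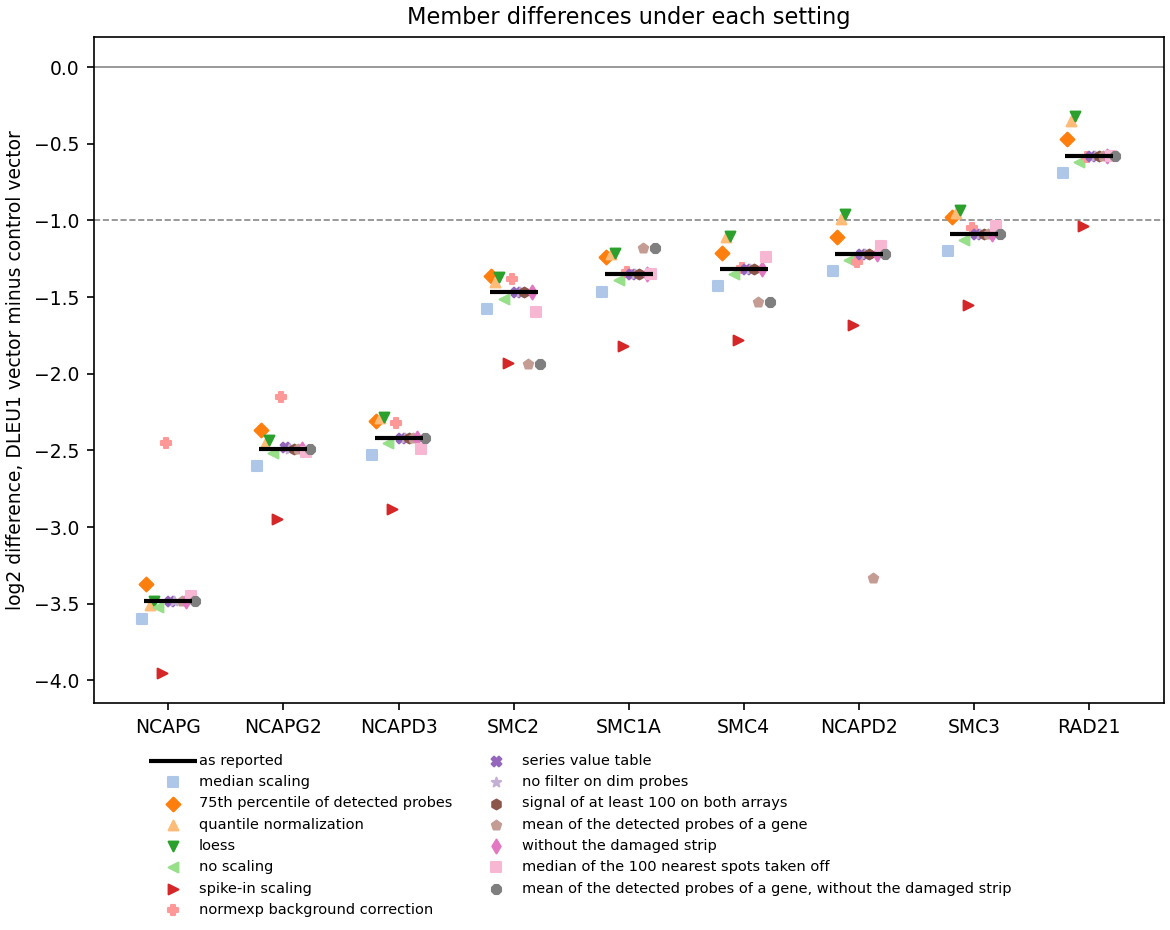
Differences of the 9 members detected on both arrays, DLEU1 vector minus control vector on the log2 scale, as reported (black bars) and under each other processing setting (coloured symbols). The dashed line marks 2-fold lower and the solid line no difference. All points lie below 0, RAD21 crosses the 2-fold line only with spike-in scaling (-1.04), and the point far below the NCAPD2 bar (-3.33) is the mean that includes the probe in the strip.

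The core subunits that are not members are given next. Beside the counts of this and each later list stand 9.78% of all genes at least 2-fold lower and 9.18% at least 2-fold higher. Of 7 such genes 5 were detected on both arrays, 1 of them at least 2-fold lower, none (0) higher, and their median was -0.32. The one that was lower was NCAPH2, the kleisin of condensin II, at 5.97 and 4.47, a difference of -1.5 (2.83-fold lower). Its 3 probes ranged from -1.98 to -1.38. With NCAPH2, each of the 3 subunits particular to condensin II was at least 2-fold lower. The HEAT-repeat subunits of cohesin were under 2-fold on their brightest probes. STAG2, the main one in many somatic cells, gave 3.97 and 4.05, a difference of 0.07, with 4 probes from 0.04 to 1.03. STAG1 gave -0.83 and -1.15, a difference of -0.32. Among subunits of meiotic cohesin, STAG3 (-0.48 on its brightest probe) and REC8 (-0.08) were under 2-fold. The other detected STAG3 probe read -1.25, past 2-fold lower. SMC1B and RAD21L1 were not well above background on either array.

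The genes that load and unload cohesin were under 2-fold on their brightest probe in every case. Of 7 detected, none was called (0 lower and 0 higher), and their median was -0.04. With the mean of the detected probes of a gene the median was -0.38, and with spike-in scaling -0.5. The loader NIPBL read 2.32 and 2.28, a difference of -0.04, and its partner MAU2 was the highest at 0.19. The release factor WAPL, listed as WAPAL on the array, differed by -0.04 on its brightest probe and by -0.73 on the other. PDS5A was the lowest at -0.74, with 3 probes from -0.88 to -0.74. CTCF, the DNA-binding protein that stops cohesin at loop anchors, was next at -0.72. HDAC8, which removes acetyl groups from SMC3, had probes from -1.81 to 0.47, and its brightest gave -0.04.

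The genes that establish cohesion at the replication fork stood lower. Of 9 genes 8 were detected on both arrays, 6 were at least 2-fold lower and none (0) higher, with a median of -2.13. DSCC1, of the alternative clamp loader, went from 2.22 to -1.17, 10.5-fold lower. ESCO2, the acetyltransferase that acts on SMC3 in S phase, went from 1.47 to -1.72, 9.11-fold lower, while its paralog ESCO1 read -0.15 and -0.13, a difference of 0.03. CDCA5 (sororin), which shields cohesin from WAPL, went from 5.86 to 2.77, 8.53-fold lower. CHTF18 (-2.42), the fork adaptor WDHD1 (-1.84) and the helicase DDX11 (-1.24) were lower too. CHTF8, which works in the same clamp loader as CHTF18 and DSCC1, was the highest at 0.07. TIMELESS was detected with the control vector only, but its single probe lies in the strip, and it is not counted.

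All 8 genes of sister chromatid separation were called lower, and their median was -2.70. They were the kinases BUB1 (-3.08), AURKB (-2.80) and PLK1 (-2.69), the shugoshins SGO1 (-2.95) and SGO2 (-2.48), the activator CDC20 (-2.71), separase ESPL1 (-2.41) and securin PTTG1 (-1.27). ESPL1 and its inhibitor PTTG1 went from 3.0 to 0.59 and from 7.12 to 5.85. The enzyme that cuts RAD21 thus differed by 5.32-fold, while RAD21 itself differed by 1.5-fold.

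Of 8 genes listed as regulators and partners of condensin, 5 were at least 2-fold lower and none (0) higher, with a median of -2.64. MKI67, which coats mitotic chromosomes, was the lowest at -3.09. TOP2A, the topoisomerase that untangles chromosomes beside condensin, went from 3.97 to 1.11, 7.25-fold lower. CCNB1 (-2.86) and CDK1 (-2.76), the cyclin and kinase of mitotic entry, and the chromokinesin KIF4A (-2.52) were also lower. CDK1 was on 10 spots, which varied by an SD of 0.0451. MCPH1, an inhibitor of condensin II, read 0.38 and 0.22, a difference of -0.16. CKAP2, whose role was listed only as mitotic, read -0.47, and AKAP8 was highest at -0.09.

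SMC5/6 is the third SMC complex and acts in DNA repair. Of its 7 genes 2 were at least 2-fold lower and none (0) higher, with a median of -0.77. The kleisin NSMCE4A (-1.41) and its paralog EID3 (-1.36) were the called genes, though EID3 was dim, at levels of -1.46 and -2.82. SMC6 went from 2.91 to 2.14 and SMC5 from -1.05 to -1.82, a difference of -0.77 for each, which is under 2-fold. Over its 10 spots the SMC6 probe had an SD of 0.0582. NSMCE1 was the highest at 0.23. On their brightest probes, the SMC ATPases of condensin and cohesin (-1.47 to -1.09) all had lower values than those of SMC5/6. The SMC1A probe A_24_P942604 (-0.62) did not.

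Markers of the cell cycle moved with the members. All 14 S phase markers were called lower. Their median was -2.45, from CDC45 (-3.76), of the replicative helicase, to MCM6 (-1.92). Between these lay MCM2, MCM3, MCM4, MCM5 and MCM7 of the same helicase, its partner GINS2, the sliding clamp PCNA, the nuclease FEN1, the cyclin CCNE2 and the nucleotide synthesis enzymes RRM1, RRM2 and TYMS. All 14 G2/M markers were lower as well, with a median of -2.41, from AURKA (-3.02) to CKS2 (-1.86). Between these lay the cyclins CCNA2 and CCNB2, the spindle and kinetochore genes CENPF, NUSAP1, TPX2, HMMR, KIF11, KIF23 and NUF2, BIRC5 and CDCA8 of the chromosomal passenger complex, and UBE2C, which works with the anaphase-promoting complex. Of the 9 members, NCAPG, NCAPG2 and NCAPD3 had differences within the range of the 28 markers. The other 6 lay above the highest marker on their brightest probes, but the second SMC2 probe (-2.40) lay within the range. The part of the cell cycle in the member values was not tested. Over the other 46 genes of the pathway, 43 were detected on both arrays, 22 of them were called lower and none (0) higher, and the median was -1.24. The 2-fold counts of these lists held under each scaling between arrays except spike-in scaling. That gave 4 of 7 lower in SMC5/6 and 2 of 7 in loading and release, beside 24.1% of all genes. With normexp SMC5/6 had 1 lower gene of 7, beside 6.98% of all genes. With a minimum signal of 100 the counts were 1 of 5 in SMC5/6, 5 of 7 in cohesion establishment and 6 of 6 in sister separation. The share of all genes was then 10.2%.

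**Figure D4:**
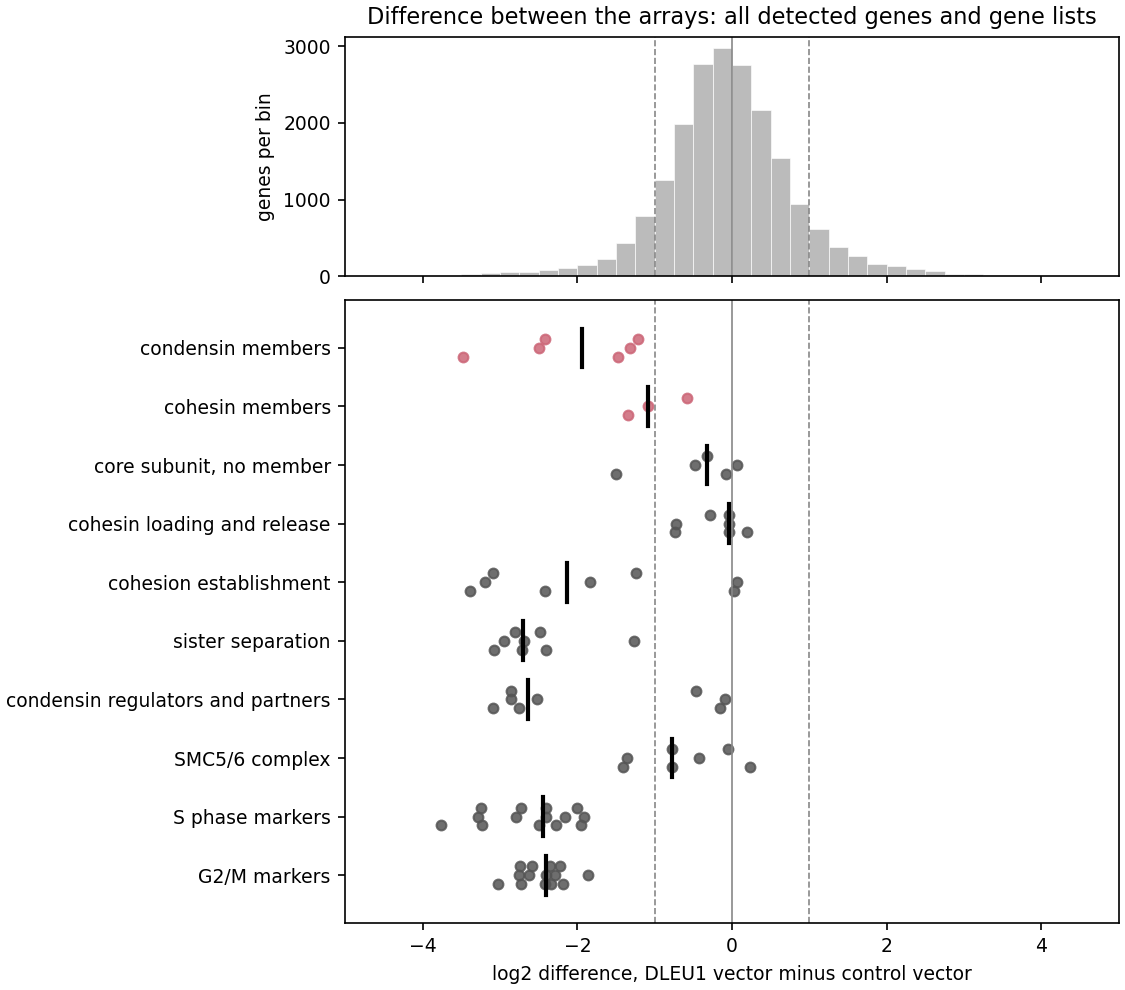
Top, number of genes per bin of the log2 difference, DLEU1 vector minus control vector, over the 20246 genes detected on both arrays. Bottom, each point is a gene detected on both arrays, by list, with the median as a black bar and the dashed lines at 2-fold. Values are those of the brightest probe of each gene. The condensin (-1.94) and cohesin (-1.09) medians lie below that of the loading and release genes (-0.04). They lie above those of the S phase and G2/M markers (-2.45 and -2.41).

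As the members moved the same way, their promoters were searched for short words known from cell cycle genes. The windows run from 250 bases before to 50 after the RefSeq gene start on GRCh38.p14, and 9 of the 10 members had one, all but RAD21. The words were searched on both strands. The core of the cell cycle homology region, a word bound by the MuvB complex, was taken as TTTGAA or TTCGAA. It was found in 6 of 9 member windows, against 16.6% of all 27305 windows. These members were SMC2, SMC4, NCAPD2, NCAPG, NCAPG2 and SMC3. The windows are shown, with the word in capitals, for the 4 members in which it lay wholly before the start.
SMC4, chr3:160399548-160399607, plus strand: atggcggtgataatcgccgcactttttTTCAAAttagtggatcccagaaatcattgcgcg
NCAPD2, chr12:6493930-6493989, plus strand: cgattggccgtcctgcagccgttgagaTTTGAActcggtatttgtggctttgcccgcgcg
NCAPG, chr4:17810917-17810976, plus strand: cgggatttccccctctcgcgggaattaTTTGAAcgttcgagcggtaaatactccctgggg
SMC3, chr10:110567517-110567576, plus strand: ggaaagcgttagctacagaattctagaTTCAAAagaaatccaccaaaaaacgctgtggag

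Counted from the start, the word began at -35 in NCAPG, the member with the lowest difference, at -75 in SMC4, at -145 in NCAPD2 and at -151 in SMC3. In SMC4 and SMC3 it reads TTCAAA, since it lies on the opposite strand. In SMC2 it spanned the start (-3 to 2), and in NCAPG2 it lay after it (35 to 40). CCAAT, the word of NF-Y, was in 2 of 9 windows, NCAPD2 with 4 matches and NCAPH with 1, against 35.7% of all. GGGCGG, the GC box, was in 6 of 9, against 44.6%. The E2F words TTTCCCGC, TTTCGCGC, TTTGCCGC and TTTGGCGC were in 0 of 9, against 3.33%, which says only that these letters are not in these windows. No match of one word overlapped one of another in the members. Of the 3 members with the lowest differences, NCAPG and NCAPG2 held the cell cycle word and NCAPD3 did not. These matches describe letters and no factor was measured.

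**Figure D5:**
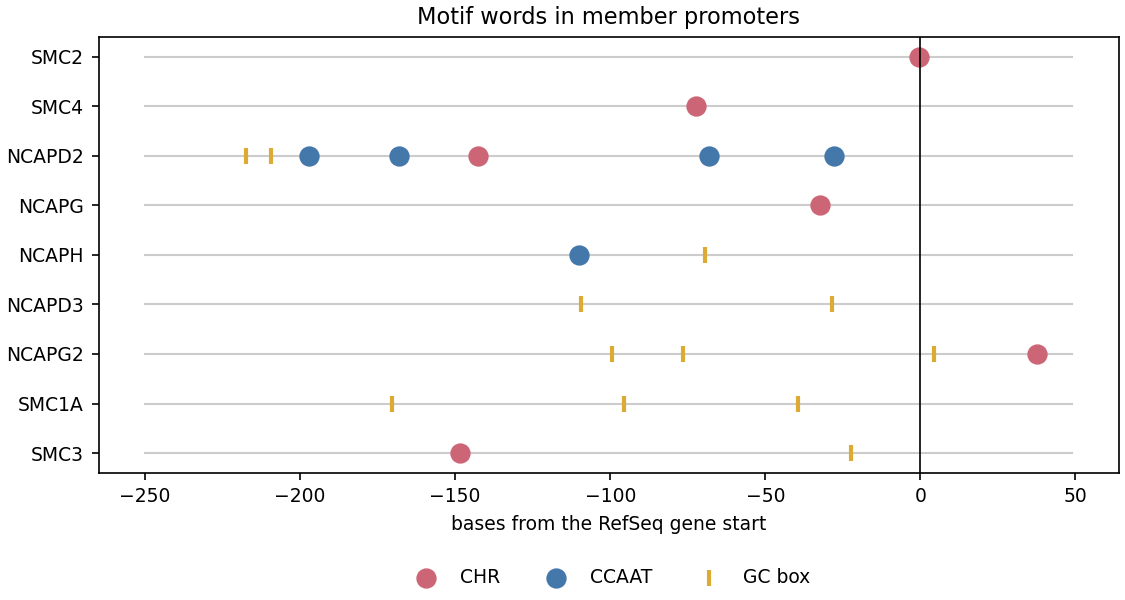
Positions of the searched words in the 9 member promoters, in bases from the RefSeq gene start (vertical line), on windows from 250 before to 50 after it. Red points mark TTTGAA or TTCGAA, blue points CCAAT and yellow bars GGGCGG, on either strand. The red points lie in 6 of 9 promoters and at no common distance from the start.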

How the data were processed

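The authors deposited intensity per spot of SurePrint G3 Human GE v3 arrays, extracted with Agilent Feature Extraction 10.7.3.1, and both arrays were on the same slide and in the same scan. Per the file headers, the processed intensity had a fitted spatial background surface taken off, multiplicative detrending was switched on, and dim spots got a surrogate value. The authors used GeneSpring. The series values they deposited are the same intensity within 0.497%. Neither file was normalized between arrays.

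Spots of a probe were averaged on the log2 scale after outlier spots were left out, and the 75th percentile over non-control probes was subtracted (7.92 control vector, 7.88 DLEU1 vector). Of 58201 probes, 27731 (47.6%) and 27969 (48.1%) were well above background on over 50% of their spots. A gene takes the value of the brightest of its probes that both arrays detected. Where only 1 array detected a gene, the other array's value was the probe's own signal or the lowest detected one (14.2 and 14.3), whichever was higher. The resulting fold is no firm minimum. No sample was left out.

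The members and gene lists were chosen with earlier results of these data known. Named were all members, the other core subunits, and of each other list the genes past 2-fold with the highest and lowest. NIPBL, WAPL, CTCF, HDAC8, ESCO1, MCPH1, CKAP2, SMC5, SMC6 and TIMELESS fall outside this rule and were named after their values were seen. The strip was found in blocks of 8 rows and 5 columns with at least 10 probes of signal 100 or more, at least 25% of them 8-fold lower, a rule set after seeing the data. With 2 arrays, likeness of patterns could not be measured. Probe positions are hg19 as deposited, and promoters are RefSeq's. Scripts were tested on simulated data. Tools were Python 3.11.15, numpy 2.4.6, pandas 2.3.3, scipy 1.17.1, R 4.3.3 and limma 3.58.1 (normexp offset 50, loess span 0.3).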

Additional observations from a re-analysis of the deposited data

How the results depend on the processing

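With 1 array per group, no array could be left out and the spread between cultures is unknown. No paired analysis was possible because each group was a single array. Neither leaving out a replicate nor the replicate block was run. The medians (-1.35 over the members, -1.94 for condensin, -1.09 for cohesin, gap -0.85) and the count of 8 stayed within 1 spot SD, and the count within 1.5 times, with no scaling, with the series values and without the strip. Below, values are in the order members, condensin, cohesin. Median scaling gave -1.47, -2.06 and -1.20. The 75th percentile over detected probes gave -1.24, -1.83 and -0.98 (7 of 9 lower, beside 7.78% of all genes). Quantile normalization gave -1.22, -1.84 and -0.95 (6 of 9, beside 8.64%), and loess -1.21, -1.83 and -0.93 (6 of 9, beside 8.16%). Setting 8 spike-in probes equal gave -1.82, -2.41 and -1.55 (9 of 9), moved the median of all genes from -0.07 to -0.53, and put 24.1% of genes 2-fold lower and 4.56% higher, against 9.78% and 9.18%. Median scaling put the median of all genes at -0.18. With normexp condensin was -1.77 and the gap -0.72, and NCAPG2 minus NCAPD3 turned from -0.07 to 0.17. Without a filter on dim probes and with a minimum signal of 100, condensin was -1.47 and the gap -0.38 in each, over 10 and 8 members by construction. The mean of the detected probes of a gene gave -1.94 over the members, -2.45 for condensin and a gap of -1.36, and the same without the strip, chosen after seeing the data, gave -1.53, -2.18 and -1.08. Taking off the median of the 100 nearest spots gave -2.05 for condensin and a gap of -1.01. A threshold of 3-fold left 3 members. Of 125 values of single members under these settings, 73 stayed within 1 spot SD, 52 moved further and 0 changed sign. Except for the strip, the cause of these shifts was not tested. NCAPH and the DLEU1 vector value of NCAPG are limited by signal close to background.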
